A study of Arabidopsis thaliana with 6 samples.

Results

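The MAP kinase cascade genes described here are 42 Arabidopsis thaliana loci, namely the MAP kinase genes MPK1 to MPK20, the MAP kinase kinase genes MKK1 to MKK10, the upstream kinase genes MEKK1 to MEKK3, ANP1 to ANP3, YDA and OXI1, and the phosphatase genes MKP1, MKP2, AP2C1 and PTP1. They were taken by locus code from a table of 29920 loci, and each of the 42 had a single row. No measured value entered this choice, but it was made with earlier results of the same arrays known. Expression was measured on AGRONOMICS1 tiling arrays in leaf 3, dissected from Col-0 seedlings at an age given as 9 DAS. There were 3 arrays of ERF6:IOE, a strong ERF6-overexpressing line, and 3 of the control line GFP:IOE. Seedlings of both lines had been on medium with 5 µM dexamethasone for 4 h, so the inducer is common to all arrays and arrays from before induction were not analysed here. The 3 arrays of a line are biological repeats from independent experiments per the series' design text, with leaves from multiple plates, and each genotype is represented by 1 line.

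A MAP kinase cascade passes a signal through phosphorylation in 3 tiers, in which a MAP kinase kinase kinase activates a MAP kinase kinase and this activates a MAP kinase. Phosphatases remove the activating phosphates again. In leaves such cascades act in immunity, in responses to wounding, drought and reactive oxygen, in the patterning of stomata and in cell division. ERF6 (AT4G17490), an AP2/ERF transcription factor, is itself a substrate of MPK3 and MPK6. Because the kinases work through phosphorylation, their activity is not seen in a transcript measurement, and only transcript levels are compared below.

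Values are log2 expression, and a difference is ERF6:IOE minus GFP:IOE on that scale. Differences were tested with limma, a linear model with a shared estimate of variance, fitted over all 30237 rows with Benjamini-Hochberg adjustment, and a gene passed at an adjusted p of 0.05. ERF6 transcript stood at 9.99, 9.97 and 10.42 in ERF6:IOE, against 6.89, 7.38 and 7.55 in GFP:IOE. The lines did not overlap, and the difference of 2.85 (SE 0.20, 7.22-fold) passed with an adjusted p of 0.00107 (limma). Arrays correlated across rows with r from 0.984 to 0.987 within a line and from 0.977 to 0.983 between lines. Green leaf markers lay between 11.1 and 14.2 on all arrays and root markers between 3.77 and 5.07. Of the 6 root markers 5 had negative differences and none passed, and WOX5 was at 4.09 ± 0.25 in ERF6:IOE and 4.66 ± 0.23 in GFP:IOE (SD, n = 3 each). The table has no detection calls.

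None of the 42 cascade genes passed the test in either direction, while ERF6 itself was 7.22-fold higher. Adjusted p-values of the 42 genes ran from 0.545 to 0.997 (limma), and over all rows 0.724% passed, 0.698% higher and 0.0265% lower in ERF6:IOE. At an unadjusted p under 0.05 there was 1 gene, MPK3, against 8.02% of all rows. The median difference of the 42 genes was -0.03, beside -0.02 for all rows. The differences were negative for 27 genes and positive for 15, and 53.8% of all rows were negative. For 37 genes the difference was no larger than 0.2 in size, and the 5 others were MPK3, MKK9, MPK2, MPK1 and MPK11. In bulk leaf tissue, fewer cells of a type and less RNA per cell cannot be told apart.

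The arrays bounded the differences fairly closely. The 95% interval of the difference stayed within 1.5-fold in both directions for 37 of the 42 genes (88.1%), against 74.4% of all rows. The exceptions were MPK3, MPK2 and MKK9 on the upper side and MPK11 and AP2C1 on the lower side. For all 42 genes the interval stayed within 2-fold, with AP2C1 giving the lowest bound (0.582-fold) and MPK3 the highest (1.93-fold). These are intervals of single genes and are not adjusted for their number. The 37 genes include MKK8, MKK10, MPK14, MPK10 and OXI1, which were below the lower quartile of the array on some or all arrays. RMA values are compressed there, so for these genes a bound on the signal is not a bound on the transcript. A small difference could not have passed with 3 arrays per line. Given its own SE and the smallest t that passed in this table, a cascade gene would have needed a difference of 0.73 at the median, from 0.57 for MPK4 to 1.79 for AP2C1.

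**Figure D1:**
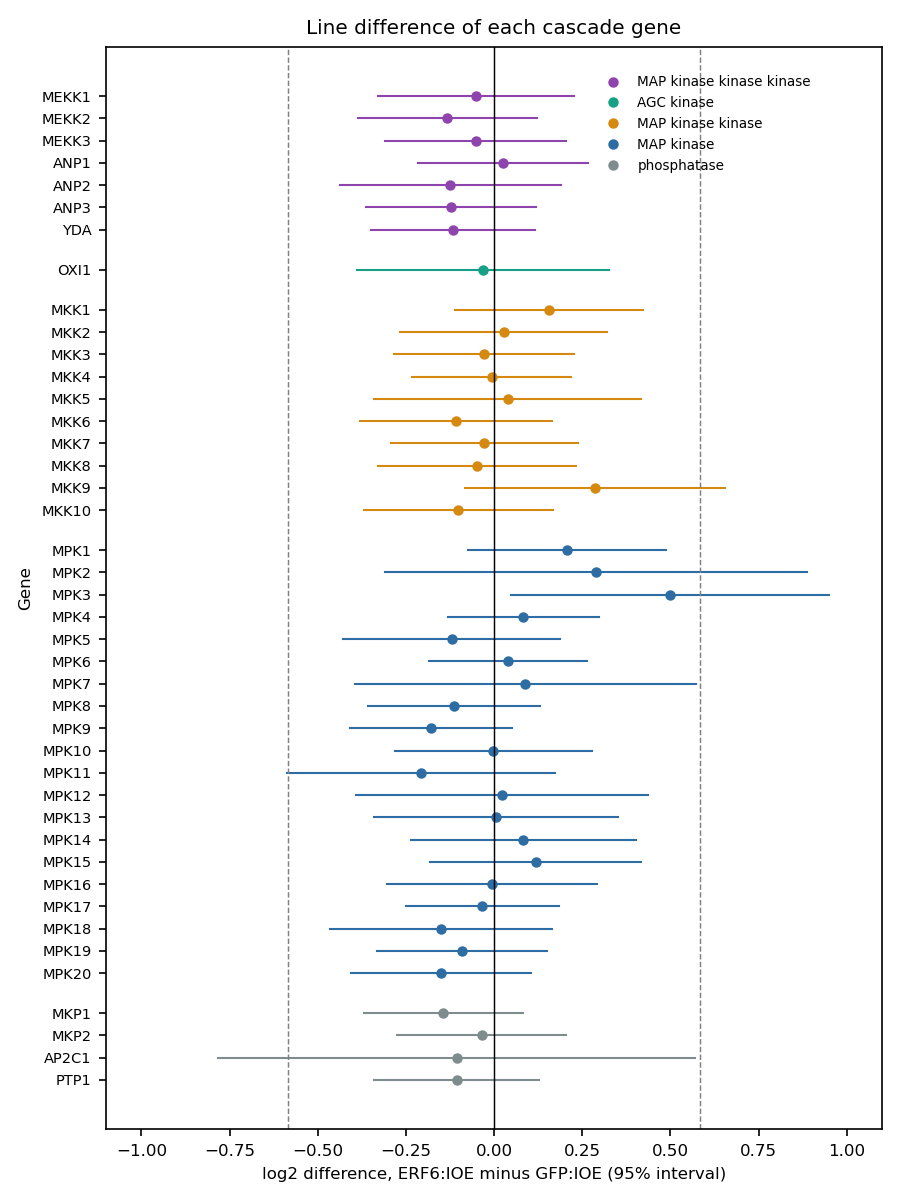
Difference in log2 expression, ERF6:IOE minus GFP:IOE, of each of the 42 genes (points) with its 95% interval from limma (bars), coloured by tier. Dashed lines mark 1.5-fold. MPK3 alone has an interval that lies wholly on one side of 0 (0.05 to 0.95), and none of the 42 genes passed after adjustment over all rows.

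The MAP kinase kinase kinases open the cascade. Of the 7 genes none passed, the median difference was -0.12 and 6 were negative, against 53.8% of all rows. In the alternative fits listed under processing, MEKK1 changed sign in 3, MEKK3 in 2 and ANP1 in 2. MEKK1 (AT4G08500), which acts above MKK1, MKK2 and MPK4 in immunity and stress, was at 5.21 ± 0.13 in ERF6:IOE and 5.26 ± 0.14 in GFP:IOE (SD, n = 3 each). MEKK2 (AT4G08480), whose product promotes the cell death that follows loss of the MEKK1 pathway, read 4.33, 4.18 and 4.33 in ERF6:IOE and 4.50, 4.26 and 4.47 in GFP:IOE. The lines overlapped for MEKK2, and its difference was -0.13 (SE 0.11). MEKK3 had a difference of -0.05 (SE 0.11). MEKK2 and MEKK3 are neighbours in the gene order of the name table, and 1 protein-coding gene lies between MEKK2 and MEKK1. Probes shared between such close copies cannot be told apart in these values.

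The ANP kinases act above MKK6 and MPK4 in the formation of the new cell wall at cytokinesis. ANP3 (AT3G06030) read 6.60, 6.41 and 6.46 in ERF6:IOE, against 6.72, 6.54 and 6.58 in GFP:IOE. The lines overlapped, with a difference of -0.12 (SE 0.10). ANP2 had the same difference (-0.12, SE 0.13), and ANP1 was at 0.03 (SE 0.10). YDA (AT1G63700), which restrains stomatal development through MKK4, MKK5, MPK3 and MPK6, read 5.48, 5.38 and 5.54 in ERF6:IOE and 5.51, 5.56 and 5.68 in GFP:IOE. Its difference was -0.12 (95% interval -0.35 to 0.12), and 1 ERF6:IOE array lay above the lowest GFP:IOE array. OXI1 (AT3G25250), a kinase of the AGC family that activates MPK3 and MPK6 upon oxidative stress, had a difference of -0.03 (SE 0.15).

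Among the 10 MAP kinase kinases none passed, with a median difference of -0.02 and a range from -0.11 for MKK6 to 0.29 for MKK9. MKK9 (AT1G73500), which can activate MPK3 and MPK6 and has been linked to ethylene and camalexin synthesis, read 8.02, 7.70 and 8.29 in ERF6:IOE and 7.67, 7.82 and 7.66 in GFP:IOE. ERF6:IOE replicates 1 and 3 lay above every GFP:IOE array and replicate 2 below GFP:IOE replicate 2. The difference was 0.29 (SE 0.16, 1.22-fold) with an adjusted p of 0.746 (limma), and its interval reached 1.57-fold. The spread in ERF6:IOE (SD 0.30) was wider than in GFP:IOE (SD 0.09), and this contrast of spreads was not tested.

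MKK4 (AT1G51660) and MKK5 (AT3G21220), the best known activators of MPK3 and MPK6, differed by -0.01 (95% interval -0.23 to 0.22) and 0.04 (-0.34 to 0.42). MKK1 (AT4G26070), which together with MKK2 activates MPK4, read 5.34, 5.52 and 5.57 in ERF6:IOE and 5.29, 5.46 and 5.22 in GFP:IOE. All 3 ERF6:IOE arrays lay above 2 of the GFP:IOE arrays, but the lines overlapped and the difference was 0.15 (SE 0.11). MKK2 was at 0.03 (SE 0.13). MKK6 (AT5G56580), the activator in the cytokinesis branch, was at -0.11 (SE 0.12). MKK3, which acts above the MAP kinases of group C, was at -0.03 (SE 0.11). The remaining genes of this tier, MKK7, MKK8 and MKK10, lay between -0.10 and -0.03, and MKK8 was below the lower quartile of the array on every array.

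The 20 MAP kinases divide by sequence into 4 groups, of which A, B and C carry the activation motif Thr-Glu-Tyr and D carries Thr-Asp-Tyr. None of the 20 passed, and 10 differences were positive and 10 negative, with a median of 0.00. In group A, MPK3 (AT3G45640), a kinase of immunity and stomatal patterning whose own transcript is induced by stress, had the largest absolute difference and the largest absolute t of the 42 genes. It read 8.07, 8.40 and 8.51 in ERF6:IOE, against 7.46, 8.09 and 7.95 in GFP:IOE. ERF6:IOE replicates 2 and 3 lay above every GFP:IOE array, while ERF6:IOE replicate 1 lay just under GFP:IOE replicate 2, so the lines overlapped. Means were 8.33 ± 0.23 in ERF6:IOE and 7.83 ± 0.33 in GFP:IOE (SD, n = 3 each). The difference was 0.50 (SE 0.19, 1.41-fold, 95% interval 0.05 to 0.95), and it did not pass, with an adjusted p of 0.545 (limma). At this SE a difference of 1.20 would have been needed.

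MPK6 (AT2G43790), which shares most known functions with MPK3, was measured more tightly. It was at 7.65 ± 0.04 in ERF6:IOE and 7.61 ± 0.09 in GFP:IOE (SD, n = 3 each), a difference of 0.04 with a 95% interval from -0.19 to 0.26. The difference between the responses of MPK3 and MPK6 was not tested. MPK10, the remaining member of group A, was at 0.00 (SE 0.12), with 1 ERF6:IOE array and 2 GFP:IOE arrays below the lower quartile of the array.

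In group B, MPK4 (AT4G01370), which restrains immune responses and acts in cytokinesis, had the smallest SE of the 42 genes (0.09). It was at 8.67 ± 0.06 in ERF6:IOE and 8.58 ± 0.04 in GFP:IOE (SD, n = 3 each), a difference of 0.08 with a 95% interval from -0.13 to 0.30. MPK11 (AT1G01560), a close relative of MPK4 that is induced by microbial patterns, read 4.10, 3.95 and 4.20 in ERF6:IOE and 3.96, 4.53 and 4.38 in GFP:IOE. GFP:IOE replicates 2 and 3 were the highest arrays and GFP:IOE replicate 1 lay among those of ERF6:IOE, and the difference was -0.21 (SE 0.16). On 1 array of each line MPK11 was below the lower quartile, where RMA values are compressed. MPK5 (-0.12), MPK12 (0.02), which acts in guard cells, and MPK13 (0.01) did not pass either.

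**Figure D2:**
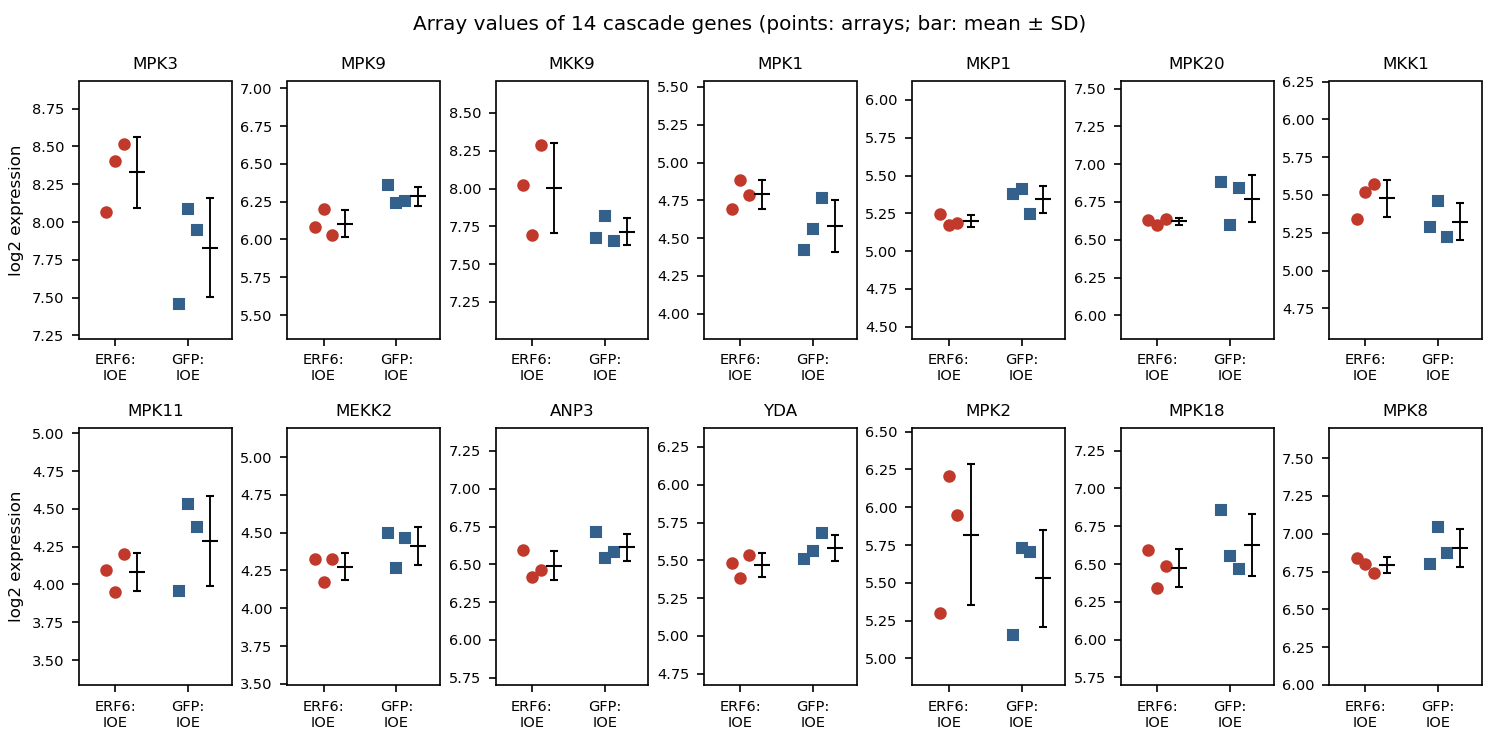
Log2 expression on each of the 3 arrays per line (points, left to right replicates 1 to 3) for the 14 cascade genes with the largest absolute moderated t, with mean ± SD beside them. Each panel spans the same range of log2 units, ERF6:IOE left of GFP:IOE. The lines overlap in every panel except that of MPK9.

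The differences of all 4 genes of group C, MPK1, MPK2, MPK7 and MPK14, were positive, at 0.21, 0.29, 0.09 and 0.08. Over all rows 46.2% were positive, and MPK7 and MPK14 changed sign in 1 alternative fit each. The kinases of group C act below MKK3, among others in abscisic acid responses. MPK1 (AT1G10210) read 4.70, 4.88 and 4.79 in ERF6:IOE and 4.42, 4.56 and 4.76 in GFP:IOE. Only GFP:IOE replicate 3 reached into the range of ERF6:IOE, and the difference of 0.21 (SE 0.12) had an adjusted p of 0.766 (limma). MPK2 (AT1G59580) read 5.30, 6.20 and 5.95 in ERF6:IOE and 5.16, 5.73 and 5.70 in GFP:IOE. In both lines replicate 1 was the lowest array, and the spread within a line (SD 0.46 in ERF6:IOE and 0.32 in GFP:IOE) exceeded the difference of 0.29 (SE 0.26). MPK7 had the same low replicate 1, at 5.67 in ERF6:IOE and 5.44 in GFP:IOE, with the other 4 arrays between 6.00 and 6.14. MPK14 was below the lower quartile on 2 ERF6:IOE arrays and on all 3 GFP:IOE arrays.

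In group D, 7 of the 8 differences were negative, against 53.8% of all rows. The median was -0.10 and the range ran from -0.18 to 0.12. MPK16 changed sign in 7 of 18 alternative fits and MPK17 in 1. MPK9 (AT3G18040), which acts with MPK12 in guard cell responses to abscisic acid, was the 1 gene of the 42 (2.38%) whose lines did not overlap, against 13.5% of all rows. It read 6.08, 6.20 and 6.03 in ERF6:IOE and 6.36, 6.24 and 6.26 in GFP:IOE. The gap between the lines was small, the difference was -0.18 (SE 0.10, 95% interval -0.41 to 0.05), and the adjusted p was 0.745 (limma). MPK20 (AT2G42880) read 6.63, 6.60 and 6.64 in ERF6:IOE and 6.88, 6.60 and 6.84 in GFP:IOE. The ERF6:IOE arrays lay closely together (SD 0.02), GFP:IOE replicate 2 lay just under the lowest of them and the other GFP:IOE arrays above them, and the difference was -0.15 (SE 0.11).

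MPK18 (AT1G53510), a kinase linked to cortical microtubules, read 6.59, 6.34 and 6.49 in ERF6:IOE and 6.86, 6.55 and 6.47 in GFP:IOE, with a difference of -0.15 (SE 0.13). MPK8 (AT1G18150), which acts in the wound response, read 6.84, 6.80 and 6.74 in ERF6:IOE and 6.80, 7.05 and 6.87 in GFP:IOE, with a difference of -0.11 (SE 0.10). The lines overlapped for both. MPK19 (-0.09), MPK17 (-0.03), MPK16 (-0.01) and MPK15 (0.12) did not pass, and the narrowest interval among these was that of MPK17 (-0.25 to 0.18).

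All 4 phosphatases had negative differences, none of which passed (median -0.11), and 53.8% of all rows were negative. The differences of MKP2 and AP2C1 changed sign in 2 alternative fits each. MKP1 (AT3G55270), a dual-specificity phosphatase that inactivates MPK3 and MPK6, read 5.25, 5.17 and 5.18 in ERF6:IOE and 5.38, 5.41 and 5.24 in GFP:IOE. ERF6:IOE replicate 1 and GFP:IOE replicate 3 met in the middle, so the lines overlapped slightly, and the difference was -0.14 (SE 0.10, 95% interval -0.37 to 0.08). PTP1 (AT1G71860), a tyrosine phosphatase that works alongside MKP1, was at 7.20 ± 0.02 in ERF6:IOE and 7.31 ± 0.11 in GFP:IOE (SD, n = 3 each), a difference of -0.11. MKP2 was at -0.04 (SE 0.10). AP2C1 (AT2G30020), a phosphatase of the PP2C type that inactivates MPK4 and MPK6 and is induced by wounding, spread most among the 42 genes. Its values ran from 7.13 to 7.92 in ERF6:IOE and from 7.06 to 8.05 in GFP:IOE, with a difference of -0.11 (SE 0.29, 95% interval -0.78 to 0.57).

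**Figure D3:**
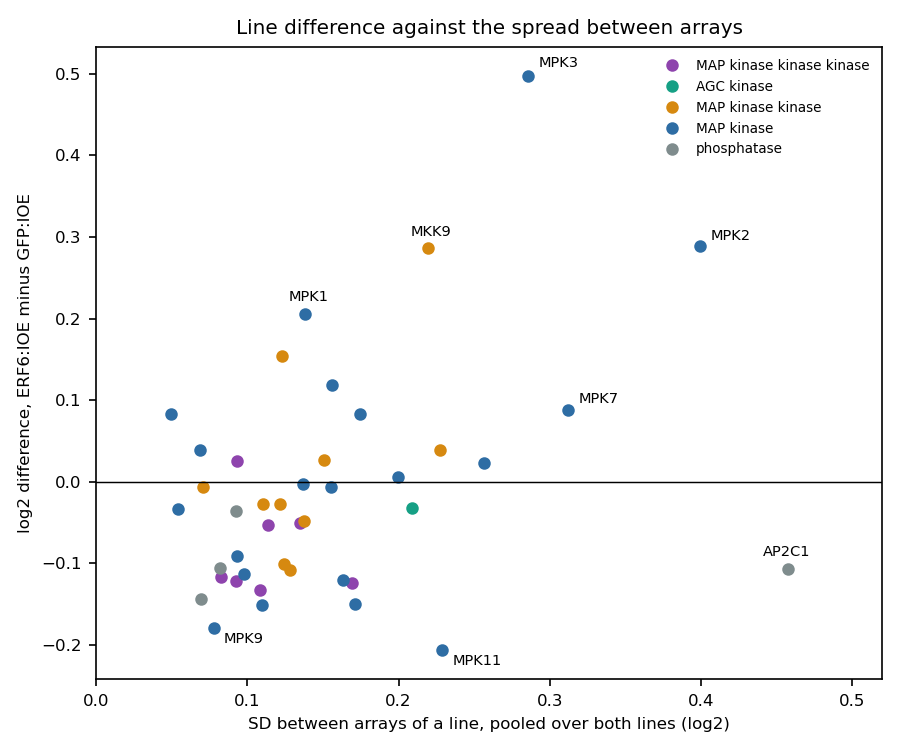
Difference in log2 expression, ERF6:IOE minus GFP:IOE, of each of the 42 genes against the SD between arrays of a line, pooled over both lines, coloured by tier. For 29 of the 42 genes the difference is smaller in size than the pooled SD. AP2C1 (0.46), MPK2 (0.40) and MPK7 (0.31) have the widest spread, and MPK3 the largest difference (0.50, at a pooled SD of 0.29).

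Genes around the cascade were listed by role, with results of these arrays known. None of 13 other MAP kinase kinase kinase genes passed (median -0.03). MAPKKK13 was at 4.97 ± 0.14 in ERF6:IOE and 4.59 ± 0.02 in GFP:IOE (difference 0.38, adjusted p 0.303 in limma; SD, n = 3 each). MAPKKK17, which acts above MKK3 in abscisic acid signalling, was at 4.30 ± 0.20 in ERF6:IOE and 4.72 ± 0.17 in GFP:IOE (difference -0.42, adjusted p 0.435 in limma; SD, n = 3 each). None of 3 other phosphatase genes passed (median 0.09, DSPTP1 at 0.31), and none of 14 receptor and receptor-like kinase genes such as FLS2, BAK1 and ERECTA (median -0.02, range -0.22 to 0.15). In the cytokinesis branch none of 6 partner genes passed (median -0.05), among them HIK, a kinesin gene whose product acts with the ANP kinases, at -0.13. The 10 stomatal lineage markers, which include targets of the YDA branch, had a median of 0.06 with none past the test. POLAR, a polarity gene of the lineage, was at 7.57 ± 0.08 in ERF6:IOE and 7.30 ± 0.09 in GFP:IOE (SD, n = 3 each), with no overlap, and its difference of 0.27 (SE 0.10) had an adjusted p of 0.522 (limma). SPCH, whose product is phosphorylated by MPK3 and MPK6, was at 0.20 (SE 0.10). The lines did not overlap for SPCH, MAPKKK13, MAPKKK17 and DSPTP1 either, and over all rows 13.5% did not overlap.

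Among substrates and partners of the MAP kinases some genes did pass. Of 24 measured genes 5 rose, none fell and 19 did not pass, with a median of 0.18. Over all rows 0.698% passed as higher and 0.0265% as lower, and the median was -0.02. One of the 5 is ERF6 itself, and without it 4 of 23 rose. ZAT6, a zinc finger factor phosphorylated by MPK6, read 8.34, 7.47 and 8.04 in ERF6:IOE against 4.79, 4.37 and 4.80 in GFP:IOE, a rise of 3.29 (SE 0.23, adjusted p 0.00107 in limma). STZ, a related zinc finger repressor that MPK3 and MPK6 phosphorylate, rose by 1.59 (SE 0.23). NIA2, a nitrate reductase gene whose product is phosphorylated by MPK6, rose by 1.05 (SE 0.14), and MKS1, a partner of MPK4 and of WRKY33, by 0.77 (SE 0.11).

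STZ, MKS1 and WRKY33 lay outside the rule for named genes and were chosen after their values were seen. Several of them have been tied to ERF6 in studies of such plants, which may have used these same arrays, and the count is therefore not independent evidence. WRKY33 was at 7.13 ± 0.21 in ERF6:IOE and 6.27 ± 0.36 in GFP:IOE (SD, n = 3 each) and did not pass (0.86, adjusted p 0.19 in limma). The calls of NIA2 and MKS1 were lost without any single array (limma adjusted p from 0.0537 to 0.16), and that of STZ without ERF6:IOE replicate 1 or 3 or GFP:IOE replicate 1 or 2 (limma adjusted p from 0.0892 to 0.132). The call of MKS1 was lost as well when the fit was blocked on repeat number, at a limma adjusted p of 0.0706.

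The last list held 10 defence genes that are used as readouts of MAP kinase and calcium-dependent kinase signalling. One of them, CYP81F2, whose P450 product modifies indole glucosinolates, rose to 6.28, 6.15 and 6.16 in ERF6:IOE, against 3.86, 3.76 and 4.17 in GFP:IOE (difference 2.27, SE 0.13, adjusted p 0.000376 in limma). The other 9 did not pass, and the median was 0.00. Over all rows 0.724% passed, with a median of -0.02. WRKY29 was at 0.40 (SE 0.16) and WRKY22 at -0.39 (SE 0.23). FRK1, a marker of MAP kinase signalling in immunity, was at -0.11 (SE 0.10). It was below the lower quartile of the array on every array, where RMA values are compressed, so this value says little about its transcript. In all, 5 of the 10 genes were below the lower quartile on some array, among them CYP81F2 on 2 GFP:IOE arrays. The 5 reference genes had a median of 0.11, and none passed. All 5 were positive, from 0.04 to 0.33, and 46.2% of all rows were positive.

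**Figure D4:**
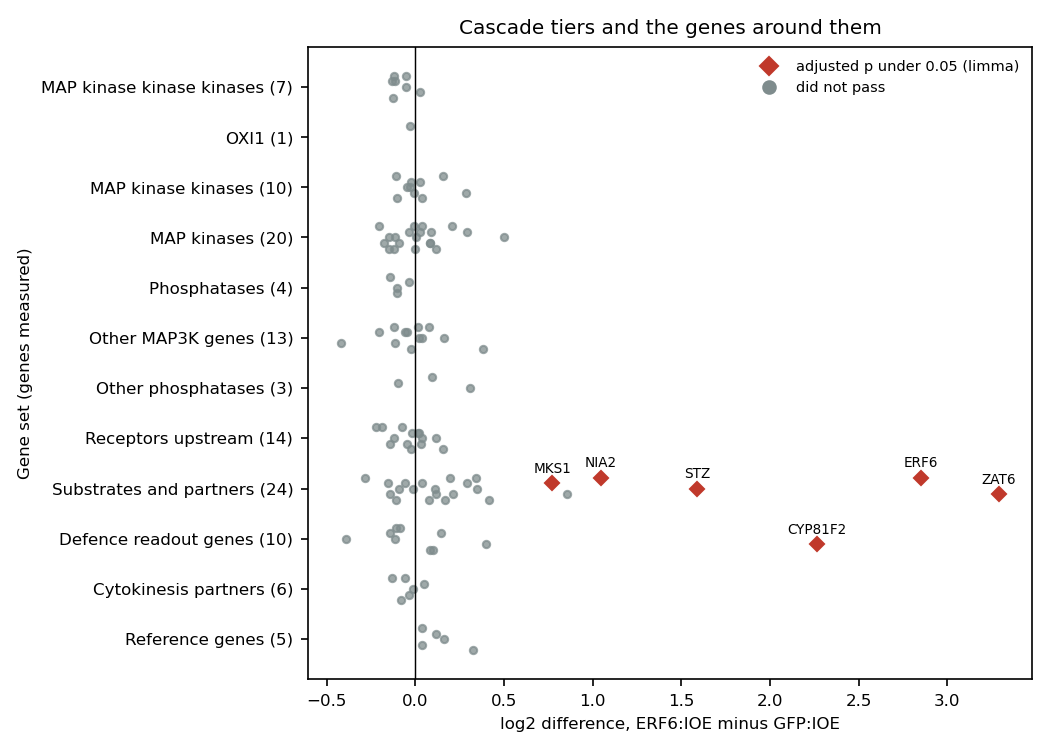
Difference in log2 expression, ERF6:IOE minus GFP:IOE, of single genes in the 5 tiers of the cascade and in 7 lists of genes around it, with the number measured in brackets. Red diamonds mark genes with an adjusted p under 0.05 (limma). All cascade genes lie between -0.21 and 0.50. ERF6, ZAT6, STZ, NIA2, MKS1 and CYP81F2 lie above that range, and so does WRKY33 (0.86), which did not pass. Genes such as MAPKKK17 (-0.42) and WRKY22 (-0.39) lie below it and did not pass.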

How the data were processed

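The deposited values are log2 expression, in 30237 rows of 29920 loci on 6 arrays. RMA, limma and the TAIR9 build are named per the submitters' processing notes, and no version or setting is given. RMA quantile-normalises arrays, so overall shifts are removed, and compresses values near the floor. Array lower quartiles were 4.03 to 4.08. Precision is limited by the number of arrays.

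Lines were compared with limma 3.58.1 (lmFit, eBayes) in R 4.3.3, two-sided, with no filter on level. Unless another source is named, adjusted p-values are from this fit. The smallest absolute t that passed was 6.21. For listed genes with more than 1 row, the brighter one was used. Names come from a table of assembly TAIR10.1, in which all 42 names were a symbol or synonym and 9 differed from its symbol. No sequences or coordinates are given.

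Members and lists were chosen with earlier results of these data known. Array values are given for the 14 members with the largest absolute moderated t. Up to 3 genes were named per list by the same measure, apart from STZ, MKS1, WRKY33, FRK1, FLS2, BAK1 and ERECTA. Of 113 listed genes 108 were used: for 4 the name table's entry at the listed locus did not bear the name, and CAB1 had no row. Of the marker lists, none of the 4 green leaf, 6 root, 5 shoot meristem, 10 stomatal lineage, 4 trichome or 4 vascular genes passed (medians 0.05, -0.17, 0.12, 0.06, -0.08 and 0.06). The alternatives comprised blocking on the repeat number, 2 filters on dim rows, 3 normalizations, a variance trend, array weights, averaged rows, and leaving out each array and each repeat.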

Additional observations from a re-analysis of the deposited data

How the results depend on the processing

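No cascade gene passed in any of the 18 alternatives, and the lowest adjusted p of any was 0.218 (MPK3, limma with the repeat number as a block). The difference of MPK3 ran from 0.31 to 0.63, with adjusted p up to 0.912. Of 739 values of cascade genes under the alternatives 64 changed sign, in 21 of the 42 genes, none of which passed. The members' median ran from -0.05 to -0.01. ERF6, ZAT6 and CYP81F2 passed in all 18 alternatives, NIA2 in 9, STZ in 11 and MKS1 in 8.

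Whether equal repeat numbers mean a shared experiment is not stated in the labels. Deviations from the line means correlated between arrays of equal number with r of 0.19, 0.078 and 0.21 across all rows, and each array correlated best with the one of its own number. With the number as a replicate block 5 rows were lower, and 148 passed in all, of which 128 also passed without it. Of the genes named here as passing, MKS1 lost its call (limma adjusted p 0.0706).

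With the filters 14 and 22 rows were lower, with fewer rows tested. Leaving out an array or a repeat gave 45 to 126 rows higher, 1 to 6 lower, and 3 to 4 genes of the other lists higher, with fewer samples. Those 3 or 4 always included ERF6, ZAT6 and CYP81F2. Signal over background was not analysed here.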

Other observations

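In AP2C1, MPK2 and MPK7 the repeat numbers lay further apart than in the other cascade genes. A span is the highest minus the lowest of 3 means, so its size cannot be set against a difference between lines. Averaged over both lines, the means of the 3 repeat numbers spanned 0.90 for AP2C1, 0.74 for MPK2 and 0.57 for MPK7, against a median span of 0.18 over the 42 genes and 0.22 over all rows. A span above that of AP2C1 was found in 1.46% of all rows, above that of MPK2 in 3.18% and above that of MPK7 in 7.52%. For AP2C1 the values at numbers 1, 2 and 3 were 7.13, 7.35 and 7.92 in ERF6:IOE and 7.06, 7.60 and 8.05 in GFP:IOE. These genes were chosen after their values were seen. MKK5 spanned 0.45, with 7.53, 7.23 and 7.07 in ERF6:IOE and 7.47, 7.22 and 7.02 in GFP:IOE, so its number 1 arrays were the highest, whereas those of AP2C1, MPK2 and MPK7 were the lowest. What the repeat numbers stand for was not tested.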
